A study of Mus musculus with 12 samples.

Results

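The genes described here are 9 genes of neurosteroid synthesis, Cyp11a1, Star, Tspo, Fdx1, Fdxr, Srd5a1, Akr1c14, Hsd11b1 and Cyp7b1, taken by symbol from the 32494 genes listed in a table of messenger RNA levels. All 9 were listed, and all 9 had a mean of at least 1 CPM, the minimum for testing. CPM is the usual count of a gene's reads relative to all reads of its library, here scaled between libraries by the authors. The set was selected on the measured CPM difference of Cyp11a1 between these same 2 groups, so that difference and those of the other 8 genes are descriptions, with standard errors and without p-values. RNA was sequenced from the hypothalamus of 12 male mice, described in the labels as 8 weeks old, with tissue taken 5 weeks after tamoxifen. All mice carried floxed Smc3, a gene for a core subunit of cohesin, and all received tamoxifen. The 7 mice labelled WT lacked the Camk2a-cre/ERT2 transgene (Cre-) and the 5 labelled cKO carried it (Cre+). The word control stands in the titles of both groups. The Camk2a promoter is active in forebrain excitatory neurons, so glia, vessels and other neurons of the hypothalamus are not its targets.

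Neurosteroids are steroids made within the brain from cholesterol. Cholesterol is carried to the inner mitochondrial membrane, where the enzyme encoded by Cyp11a1 cuts its side chain to give pregnenolone, using electrons that pass from NADPH through ferredoxin reductase and ferredoxin. Later enzymes turn pregnenolone into progesterone and its reduced products, among them allopregnanolone, which acts on GABA-A receptors. Glia and neurons both hold parts of the pathway, and transcript levels of Cyp11a1 in brain are far below those in adrenal gland and gonads.

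Smc3, measured as a check of the labels, averaged 81.6 ± 3.14 CPM over WT (SD, n = 7) against 131 ± 10.3 CPM over the other group (SD, n = 5). It was therefore higher, not lower, in the libraries labelled cKO, and every direction below refers to the labels only. Depth was 17126005 to 24010001 reads in 11 libraries and 68744112 reads in WT 1. A level of 3 reads corresponded to between 0.0436 and 0.178 CPM. All 12 hypothalamus markers were detected, with Nr5a1 at 0 in some libraries. The libraries WT 4, WT 5, cKO 12 and cKO 13 stood apart. The oxytocin gene Oxt was at 0.280 to 2.33 CPM in these 4 and at 69.5 to 348 CPM in the other 8, and the vasopressin gene Avp was at 0.793 to 6.46 against 29.0 to 125 CPM. The myelin gene Mbp was at 3689 to 4334 CPM in the same 4 libraries and at 1734 to 3025 CPM in the other 8. Results on the 9 genes are given with and without these 4 libraries where it matters.

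Cyp11a1 was the gene of the set that differed most, and the 2 stretches of mouse genome around its annotated transcription starts are shown to place it. Both are from RefSeq on the build GRCm38.p6 (plus strand, 250 bases before and 50 after each start), and the build behind the deposited values is not given in the sources used here. The upstream window is chr9:57997774-57998073 and the downstream window is chr9:58014702-58015001. Capitals mark AGGTCA, the nuclear receptor half-site to which the steroidogenic factor Nr5a1 can bind, searched for on both strands as AGGTCA or TGACCT.
Cyp11a1 upstream start: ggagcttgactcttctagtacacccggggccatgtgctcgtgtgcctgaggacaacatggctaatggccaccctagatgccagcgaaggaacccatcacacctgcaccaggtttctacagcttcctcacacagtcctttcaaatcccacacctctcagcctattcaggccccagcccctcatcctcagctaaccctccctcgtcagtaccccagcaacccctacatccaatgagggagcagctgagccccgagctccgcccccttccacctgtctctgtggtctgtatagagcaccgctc
Cyp11a1 downstream start: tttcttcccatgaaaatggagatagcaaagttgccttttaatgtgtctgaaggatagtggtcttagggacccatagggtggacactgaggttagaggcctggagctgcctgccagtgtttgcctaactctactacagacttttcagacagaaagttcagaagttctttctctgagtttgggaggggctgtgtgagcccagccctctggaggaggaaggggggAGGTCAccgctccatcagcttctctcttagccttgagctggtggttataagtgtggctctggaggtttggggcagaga
The downstream window holds 1 copy, which begins 28 bases before the start, and the upstream window holds none. The letters occur in 16.3% of the 32851 RefSeq windows of this length. Of the 9 genes, 6 have entries in the table, with 7 windows in all, and AGGTCA is in the downstream window of Cyp11a1 only. The deposited values are totals per gene, so they do not tell which start the reads came from.

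**Figure D1:**
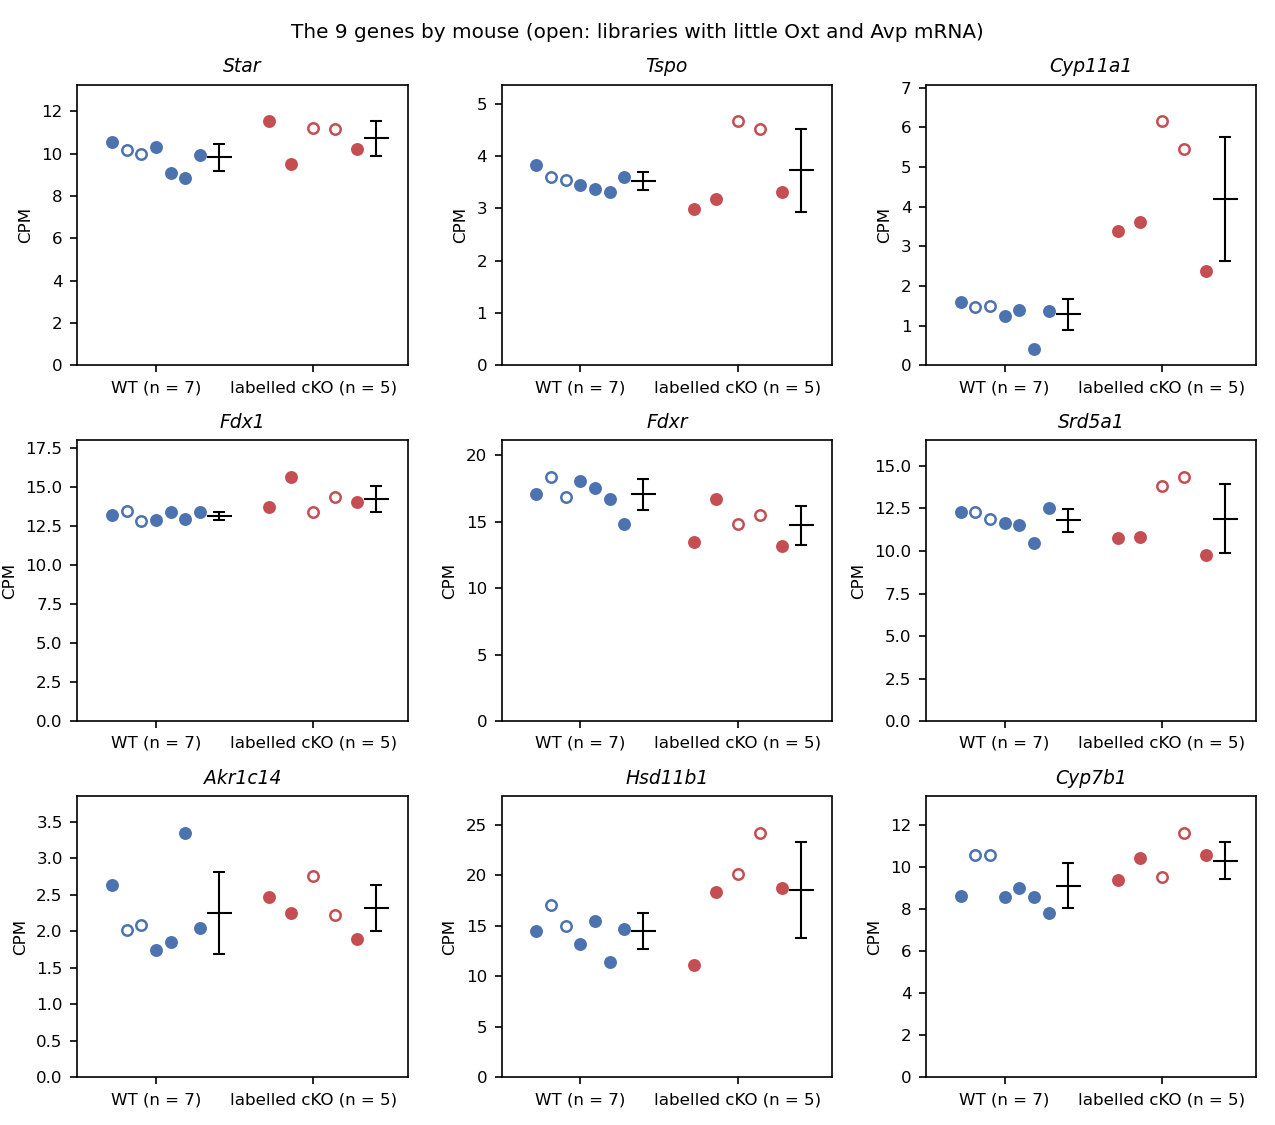
Level of each of the 9 genes in CPM (vertical axes from 0) in the 7 WT mice (blue) and the 5 mice labelled cKO (red), with the mean ± SD beside each group. Open circles are the 4 libraries with little Oxt and Avp mRNA. Cyp11a1 is the single gene whose groups do not overlap.

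Transcripts of the 2 genes for cholesterol delivery to the mitochondrion differed little in mean level between the groups. Star encodes the steroidogenic acute regulatory protein, which carries cholesterol to the inner membrane. It was between 8.84 and 10.6 CPM in WT, with a median of 9.999, and at 11.5, 9.51, 11.2, 11.2 and 10.2 CPM in cKO 8, cKO 9, cKO 12, cKO 13 and cKO 14. The 3 highest values were those of cKO 8, cKO 12 and cKO 13, and the ranges overlapped. The log2 fold change of Star, here and below on the log2(CPM + 1) scale from limma, was 0.11 (SE 0.06), and it was 0.09 without the 4 libraries low in Oxt and 0.02 with the mean log2 level of 10 thalamus markers as a covariate.

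Tspo encodes the translocator protein of the outer mitochondrial membrane, which binds cholesterol and is abundant in microglia. It was between 3.30 and 3.82 CPM in WT, with a median of 3.53. In the libraries labelled cKO it was at 2.98 (cKO 8), 3.19 (cKO 9), 4.66 (cKO 12), 4.51 (cKO 13) and 3.31 CPM (cKO 14). The group labelled cKO thus lay on both sides of WT, with 2 mice above the highest WT value and 2 below the lowest. The mean difference was 0.05 (SE 0.09) on the log2 scale and became -0.12 without WT 4, WT 5, cKO 12 and cKO 13. Single mice moved it as well. It was 0.11 without cKO 8, 0.09 without cKO 9, -0.02 without cKO 12 and -0.01 without cKO 13. The summed level of 7 microglia markers ranged from 199.7 to 234 CPM in WT and from 217 to 241 CPM in the libraries labelled cKO, and no one of the 7 was past the limma threshold. Tspo shares 53 exon bases with its neighbour Mcat, which was at 16.04 to 22.7 CPM, and the strand setting of the counting is not given in the sources used here.

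Side-chain cleavage depends on Cyp11a1 and the mitochondrial electron chain of Fdxr and Fdx1. Cyp11a1 was between 0.413 and 1.599 CPM in WT, with a median of 1.38. It was at 3.40 CPM in cKO 8, 3.63 in cKO 9, 6.16 in cKO 12, 5.46 in cKO 13 and 2.37 in cKO 14. Every library labelled cKO was above the highest WT library, and the highest 2 were cKO 12 and cKO 13. The means were 1.29 ± 0.400 CPM for WT (SD, n = 7) and 4.20 ± 1.56 CPM for the libraries labelled cKO (SD, n = 5), a ratio of 3.27, from 10 reads in WT 11 to 132 in cKO 12. This gave a log2 fold change of 1.16 (SE 0.19). On recovered whole reads, where no pseudocount of 1 shrinks low levels, edgeR gave a log2 fold change of 1.69, and the authors' deposited table holds 1.70 for Cyp11a1.

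Levels of Cyp11a1 are also given for the 2 sets of libraries. As the groups did not overlap, any split must show the same direction, so nothing is read from it. In the 4 low in Oxt and Avp, the mean was 1.48 CPM in the 2 WT mice and 5.81 CPM in the 2 labelled cKO. In the other 8 it was 1.21 ± 0.460 CPM (SD, n = 5) and 3.13 ± 0.671 CPM (SD, n = 3), and a fit of those 8 gave 0.92 on the log2 scale. Thalamus marker RNA differed between the groups in part. The summed level of 10 thalamus markers ranged from 1361 to 2073 CPM in WT and from 1208 to 1509 CPM in the libraries labelled cKO, all 10 were detected in every library, and 3 were past the limma threshold, all lower in the libraries labelled cKO. With the mean log2 level of these markers as a covariate, the log2 fold change of Cyp11a1 was 0.84. WT 11, which had the lowest Cyp11a1, had the highest thalamus sum. In whole tissue, more cells that express a gene and more RNA per cell cannot be told apart. The defining markers of adrenal cortex and gonads, Cyp11b1, Cyp17a1, Cyp21a1, Mc2r and Cyp11b2, summed to at most 0.355 CPM in any library, and Mc2r was at 0 in all 12.

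**Figure D2:**
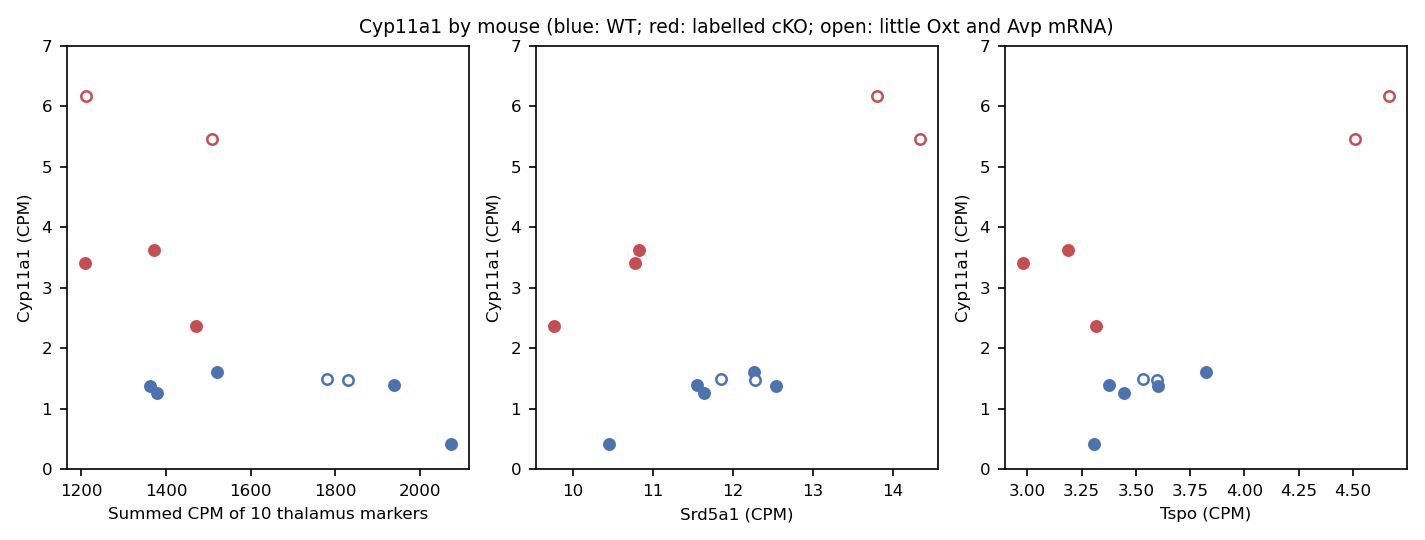
Cyp11a1 (CPM, vertical axes) against the summed CPM of 10 thalamus markers, Srd5a1 (CPM) and Tspo (CPM) in 12 mice. Blue points are WT, red points are labelled cKO, and open points are the 4 libraries low in Oxt and Avp. cKO 12 and cKO 13 are highest on Cyp11a1, Srd5a1 and Tspo, and WT 11 has the lowest Cyp11a1 and the highest thalamus sum.

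Fdx1 encodes ferredoxin, the small iron-sulfur protein that hands electrons to the side-chain cleavage enzyme. It was the steadiest gene of the set in WT, between 12.8 and 13.5 CPM with a median of 13.2. In the libraries labelled cKO it was at 13.7 (cKO 8), 15.6 (cKO 9), 13.4 (cKO 12), 14.3 (cKO 13) and 14.03 CPM (cKO 14), so 4 of 5 lay above the WT range and cKO 12 within it. For Fdx1 the log2 fold change was 0.10 (SE 0.05), and it was 0.12 without the 4 libraries low in Oxt. Fdxr encodes the reductase that feeds ferredoxin, and its values went the other way. It was between 14.8 and 18.3 CPM in WT, with a median of 17.1, and at 13.5, 16.7, 14.8, 15.5 and 13.1 CPM in cKO 8, cKO 9, cKO 12, cKO 13 and cKO 14. The 2 libraries cKO 8 and cKO 14 were below the WT range, and the rest overlapped it. For Fdxr the log2 fold change was -0.20 (SE 0.07), from -0.25 to -0.16 when single mice were left out.

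The enzymes that reduce progesterone showed means close to each other and unequal spread. Srd5a1 encodes the steroid reductase that starts the conversion of progesterone to allopregnanolone. It was between 10.5 and 12.5 CPM in WT, with a median of 11.9. It was at 10.8 CPM in cKO 8 and in cKO 9, 13.8 in cKO 12, 14.3 in cKO 13 and 9.77 in cKO 14. As for Tspo, cKO 12 and cKO 13 lay above every WT mouse. For Srd5a1 cKO 14 was the single library below the WT range, and the log2 fold change was 0.00 (SE 0.09). WT 4 and WT 5, also low in Oxt and Avp, had a mean of 12.1 CPM against 11.7 CPM in the other WT mice, whereas cKO 12 and cKO 13 had 14.1 CPM against 10.5 CPM in the other mice labelled cKO. Without these 4 libraries the log2 fold change of Srd5a1 was -0.15. Srd5a1 lies within the span of Nsun2, which was at 88.9 to 112 CPM, but the 2 genes share 0 exon bases in the GENCODE M21 annotation.

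Akr1c14 encodes the aldo-keto reductase that completes allopregnanolone. It was between 1.75 and 3.35 CPM in WT, with a median of 2.05, and at 2.48, 2.25, 2.75, 2.23 and 1.89 CPM in cKO 8, cKO 9, cKO 12, cKO 13 and cKO 14. The highest value was that of WT 11, the mouse with the lowest Cyp11a1, and the range labelled cKO lay inside that of WT. Its log2 fold change was 0.04 (SE 0.11), and single libraries moved it: it was 0.12 without WT 11, 0.00 without cKO 12 and -0.03 without the 4 libraries low in Oxt and Avp. Of the 75-base windows of Akr1c14 transcripts, 5.06% also occur in another annotated gene, and the share was 14.4% for Srd5a1, 1.48% for Cyp11a1 and 0 for the other 6 genes.

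The last 2 genes work on steroids around this route. Hsd11b1 encodes the reductase that regenerates active corticosterone from its inert form. It was between 11.4 and 17.1 CPM in WT, with a median of 14.6, and in the libraries labelled cKO at 11.1 (cKO 8), 18.4 (cKO 9), 20.2 (cKO 12), 24.2 (cKO 13) and 18.8 CPM (cKO 14). Of the 5, 4 were above the WT range and cKO 8 was below it. Hsd11b1 had a log2 fold change of 0.30 (SE 0.15), which was 0.46 without cKO 8, 0.20 without cKO 13 and 0.17 without the 4 libraries low in Oxt and Avp. Hsd11b1 lies within the span of Lamb3, which was at 0.592 to 4.20 CPM, and shares 0 exon bases with it. Cyp7b1 encodes a hydroxylase of oxysterols and of neurosteroids such as pregnenolone. It was between 7.83 and 10.6 CPM in WT, with a median of 8.64, and at 9.40, 10.4, 9.56, 11.6 and 10.6 CPM in cKO 8, cKO 9, cKO 12, cKO 13 and cKO 14. WT 4 and WT 5 had the highest WT values and reached the middle of the range labelled cKO. Cyp7b1 had a log2 fold change of 0.17 (SE 0.08), which was 0.27 with the thalamus marker score as a covariate. Outside the 4 libraries low in Oxt and Avp it was at 8.53 ± 0.427 CPM (SD, n = 5) in WT and 10.1 ± 0.650 CPM (SD, n = 3) in the other group, and the log2 fold change was 0.23.

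**Figure D3:**
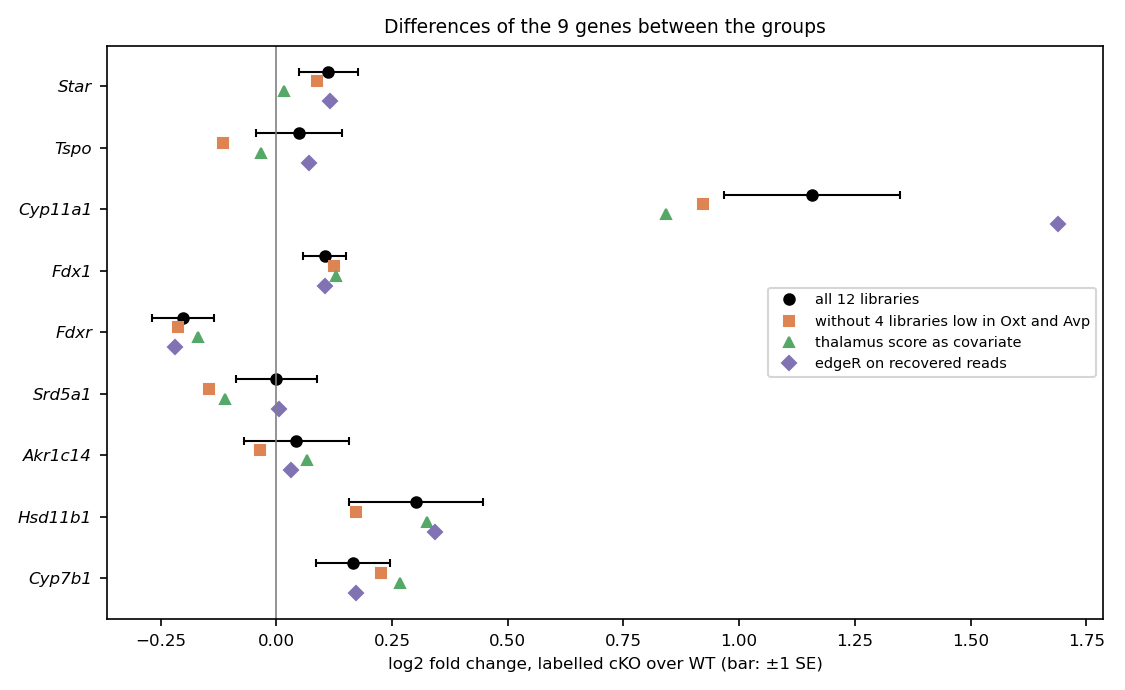
Log2 fold change of each of the 9 genes, labelled cKO over WT (horizontal axis), from limma on all 12 libraries (black, bar ±1 SE), without the 4 libraries low in Oxt and Avp (orange), with the thalamus marker score as a covariate (green) and from edgeR on recovered reads (purple). Cyp11a1 is between 0.84 and 1.69 in these fits, and Tspo, Srd5a1 and Akr1c14 change sign around 0.

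Of the 9 genes, 1, Cyp11a1, was past a limma adjusted p-value of 0.05, where 14.1% of the 15359 tested genes were (6.54% higher and 7.6% lower). The group ranges did not overlap for 1 of the 9, again Cyp11a1, and for 6.73% of all tested genes (3.52% with the libraries labelled cKO above). Because the contrast chose this gene, nothing is read from either count. The median log2 fold change was 0.10 over the 9 genes and 0.01 over all tested genes. The spread between mice on the log2 scale was wider in the libraries labelled cKO for 7 of the 9 genes, the exceptions being Akr1c14 and Cyp7b1, and for 58.6% of all tested genes. The coefficient of variation of Tspo was 4.89% in WT and 21.3% in the libraries labelled cKO, that of Srd5a1 5.91% and 17.1%, and that of Hsd11b1 12.3% and 25.6%. In Tspo and Srd5a1 the wider spread came with the separation of cKO 12 and cKO 13 from the other 3.

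Levels of the 9 genes were set against each other per kb of exon, with lengths from GENCODE M21. Each length joined the exons of all annotated transcripts, 4.804 kb for Cyp11a1 and 3.239 kb for Akr1c14. Which transcripts were expressed is not known, so the order of genes depends on these lengths. Fdxr was highest in WT, at 6.08 ± 0.412 CPM per kb (SD, n = 7). Below it came Fdx1 at 4.24, Cyp7b1 at 4.21, Srd5a1 at 4.06, Hsd11b1 at 3.41 and Tspo at 3.36 CPM per kb, and each of these 5 overlapped its neighbour in the range over WT mice. Star, at 2.39 ± 0.156, lay below them without overlap. Akr1c14 was at 0.694 ± 0.172 and Cyp11a1 was lowest, at 0.268 ± 0.0832 CPM per kb. In the libraries labelled cKO, Cyp11a1 was at 0.875 ± 0.325 CPM per kb (SD, n = 5) and Akr1c14 at 0.717 ± 0.0982. Their ranges overlapped, and these 2 genes changed places in the order of means. Cyp11a1 was above Akr1c14 in cKO 12 (1.28 against 0.850), cKO 13 (1.14 against 0.689) and cKO 9 (0.755 against 0.696). Cyp11a1 was below Akr1c14 in cKO 8 (0.707 against 0.764) and cKO 14 (0.493 against 0.585). On these lengths the order of the means thus rested on cKO 12 and cKO 13. Without division by length, Cyp11a1 was above Akr1c14 in every library labelled cKO. It was at 3.40 against 2.48 CPM in cKO 8 and at 2.37 against 1.89 CPM in cKO 14. Fdx1 and Cyp7b1 changed places too, as did Srd5a1 and Hsd11b1. Even in the libraries labelled cKO, the transcript of the side-chain cleavage enzyme was below those of its electron donors, with Fdxr at 5.25 and Fdx1 at 4.58 CPM per kb.

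**Figure D4:**
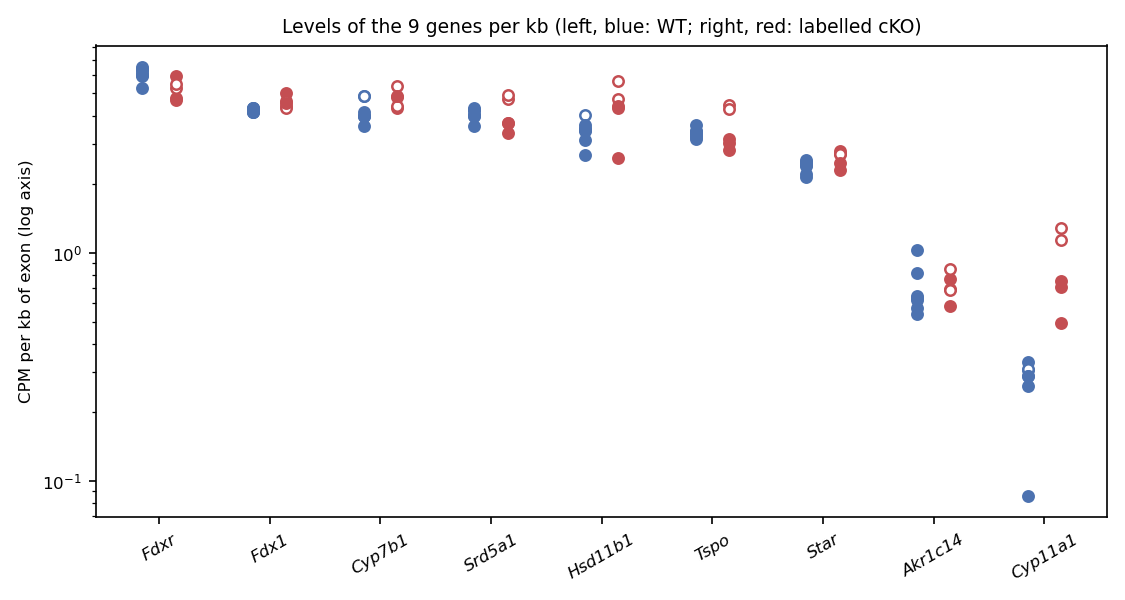
Level of each gene in CPM per kb of exon (log axis), ordered by the WT mean, with each of the 7 WT mice at the left (blue) and each of the 5 mice labelled cKO at the right (red). Open circles are the 4 libraries low in Oxt and Avp. Cyp11a1 is lowest in WT and overlaps Akr1c14 in the libraries labelled cKO.

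Whether the genes varied together from mouse to mouse was asked within WT, where the difference between groups plays no part, for 5 pairs. Cyp11a1 and Star had a Pearson r of 0.72 over the 7 WT mice (two-sided exact permutation p-value 0.0413, or 0.206 adjusted over the 5 pairs) and a Spearman rho of 0.57 (exact p-value 0.200). Without the 2 mice farthest from the Cyp11a1 median, r was -0.13, so the relation rested on those mice. Cyp11a1 with Fdx1 (r = 0.40, rho = 0.11), Cyp11a1 with Fdxr (r = 0.10, rho = 0.21), Fdx1 with Fdxr (r = -0.09, rho = 0.32) and Srd5a1 with Akr1c14 (r = -0.57, rho = -0.07) had adjusted exact permutation p-values of 0.474 or more. For Srd5a1 with Akr1c14 the sign rested on WT 11, as r was 0.57 without that mouse and 0.75 without the 2 mice farthest from the Srd5a1 median. Without the 2 farthest mice r was 0.24 for Cyp11a1 with Fdx1, -0.04 for Cyp11a1 with Fdxr and 0.10 for Fdx1 with Fdxr, so the last 2 pairs changed sign too. No pair was past the threshold after adjustment.

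The pattern of Cyp11a1 across mice was also compared with every tested gene after each group's mean had been subtracted. Over the 12 mice, the genes most like it of the 15358 others included H2-K1 (a class I histocompatibility gene), with a Pearson r of 0.96, Klhl33 (r = 0.96), L3mbtl4 (r = 0.95) and Hpca, a neuronal calcium sensor (r = 0.95). Their Spearman rho was 0.90 to 0.94. Among the 9 genes, Srd5a1 was the most like Cyp11a1, with r = 0.91 and rho = 0.88, followed by Tspo with r = 0.75 and rho = 0.87. On Cyp11a1, Srd5a1 and Tspo alike, cKO 12 and cKO 13 were highest and WT 11 was the lowest WT mouse. How far the likeness rested on these few libraries was not tested. The r and rho values are descriptions, since all genes of a library share its depth and its tissue piece. The 4 genes named first were picked from the highest of all.

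The rest of the pathway was described through 92 other genes of cholesterol delivery, electron transfer, steroid enzymes, reductases, oxysterol enzymes, conjugation, regulators and receptors. Of these 89 were listed and 55 reached the CPM minimum. By limma 7 of them rose in the libraries labelled cKO and 2 fell, 9 of 55 or 16.4%, against 14.1% of all tested genes. The median log2 fold change was 0.03 over the 55 and 0.01 over all tested genes. The share is near the background, and the 9 are given one by one.

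Of the other steroid enzymes, 15 of 21 listed genes (71.4%) were under the CPM minimum, as were 52.7% of all listed genes, and 6 of the 21 had at most 3 reads in any library. The 6 that reached the minimum were Hsd3b7, Hsd17b4, Hsd17b7, Hsd17b10, Hsd17b11 and Hsd17b12. Hsd3b7, whose product acts on oxysterols in bile acid synthesis, was the most abundant Hsd3b gene, at 10.5 ± 0.890 CPM over WT (SD, n = 7) and 9.68 ± 1.154 CPM over the other group (SD, n = 5). Of the other Hsd3b genes, whose products include the enzymes that turn pregnenolone into progesterone, Hsd3b3 was highest, at 0.277 ± 0.0882 CPM over WT (SD, n = 7) and 0.256 ± 0.0795 CPM over the other group (SD, n = 5). Cyp17a1, the lyase needed for androgens, had at most 2 reads in any library. Cyp19a1, the aromatase that makes oestrogens, ranged from 0.0493 to 2.07 CPM in WT and from 0 to 1.47 CPM in the libraries labelled cKO. Of the reductases, 9 of 10 listed genes were under the minimum.

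Dbi, whose product binds Tspo and acyl-CoA, was between 87.5 and 98.3 CPM in WT and at 125 (cKO 8), 97.1 (cKO 9), 107 (cKO 12), 109 (cKO 13) and 102 CPM (cKO 14). Dbi rose by 0.19 on the log2 scale (SE 0.05, limma adjusted p-value 0.0367), and 4 of 5 mice were above the WT range. Cyb5r3, the NADH-dependent reductase of cytochrome b5, averaged 78.9 ± 2.85 CPM over WT (SD, n = 7) and 88.7 ± 5.84 CPM over the other group (SD, n = 5). Its groups were only just apart, with WT 15 at 82.26 CPM and cKO 9 at 82.35 CPM (log2 fold change 0.17, SE 0.04, limma adjusted p-value 0.0263). Hsd17b11, a hydroxysteroid dehydrogenase of lipid droplets, was at 50.3 ± 4.33 and 59.9 ± 6.54 CPM (log2 fold change 0.25, SE 0.07, limma adjusted p-value 0.0421). Sult4a1, a brain sulfotransferase family member, was at 407 ± 20.8 and 465 ± 34.0 CPM (log2 fold change 0.19, SE 0.05, limma adjusted p-value 0.0290). The calls were lost in 7 (Dbi), 3 (Cyb5r3), 9 (Hsd17b11) and 6 (Sult4a1) of the 12 fits that left out 1 mouse. With the thalamus marker score as a covariate the log2 fold changes were 0.13, 0.10, 0.24 and 0.20 in that order. The limma adjusted p-values were then 0.273, 0.250, 0.166 and 0.0998.

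Cyp46a1 fell. This neuronal enzyme hydroxylates cholesterol and so starts its export from the brain. It was between 147 and 199.6 CPM in WT, with a median of 158, and at 144 (cKO 8), 142 (cKO 9), 120 (cKO 12), 130 (cKO 13) and 135 CPM (cKO 14). The groups did not overlap, and the difference was -0.29 on the log2 scale (SE 0.07, limma adjusted p-value 0.0210). With the thalamus marker score as a covariate it was -0.14 (limma adjusted p-value 0.251), and WT 11, the library highest in Cyp46a1, was also the highest in thalamus markers.

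Among regulators, 2 cAMP-responsive factors, Crem and Creb1, were past the threshold. Crem was between 13.4 and 14.5 CPM in WT and between 15.7 and 17.6 CPM in the libraries labelled cKO, without overlap (log2 fold change 0.22, SE 0.04, limma adjusted p-value 0.00936). Creb1 was at 57.2 ± 2.14 CPM (SD, n = 7) and 62.7 ± 2.40 CPM (SD, n = 5), a rise of 0.13 on the log2 scale (SE 0.04, limma adjusted p-value 0.0364). The call on Creb1 was lost in 9 of the 12 fits that left out 1 mouse and with the thalamus marker score (limma adjusted p-value 0.0929), and its FDR in the authors' deposited table was 0.180. Nr5a1, the steroidogenic factor that drives Cyp11a1 in adrenal and gonads, differed by -0.43 on the log2 scale (SE 0.60, limma adjusted p-value 0.668) and was at 0 in at least 1 library. Among 15 receptors, the oestrogen receptor gene Esr1 rose by 0.99 on the log2 scale (SE 0.23, limma adjusted p-value 0.0143), at 9.07 ± 3.29 CPM over WT (SD, n = 7) and 18.9 ± 6.63 CPM over the other group (SD, n = 5). Esr1 was at 30.04 CPM in cKO 8 and between 12.9 and 18.6 CPM in the other 4, against a highest WT value of 15.2 CPM in WT 11. The glucocorticoid receptor gene Nr3c1 had means of 130.4 ± 10.7 and 109.6 ± 11.8 CPM, a difference of -0.25 on the log2 scale (SE 0.07, limma adjusted p-value 0.0297), and cKO 14, at 128 CPM, was within the WT range. With the thalamus marker score as a covariate the difference of Nr3c1 was -0.10 (limma adjusted p-value 0.354).

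**Figure D5:**
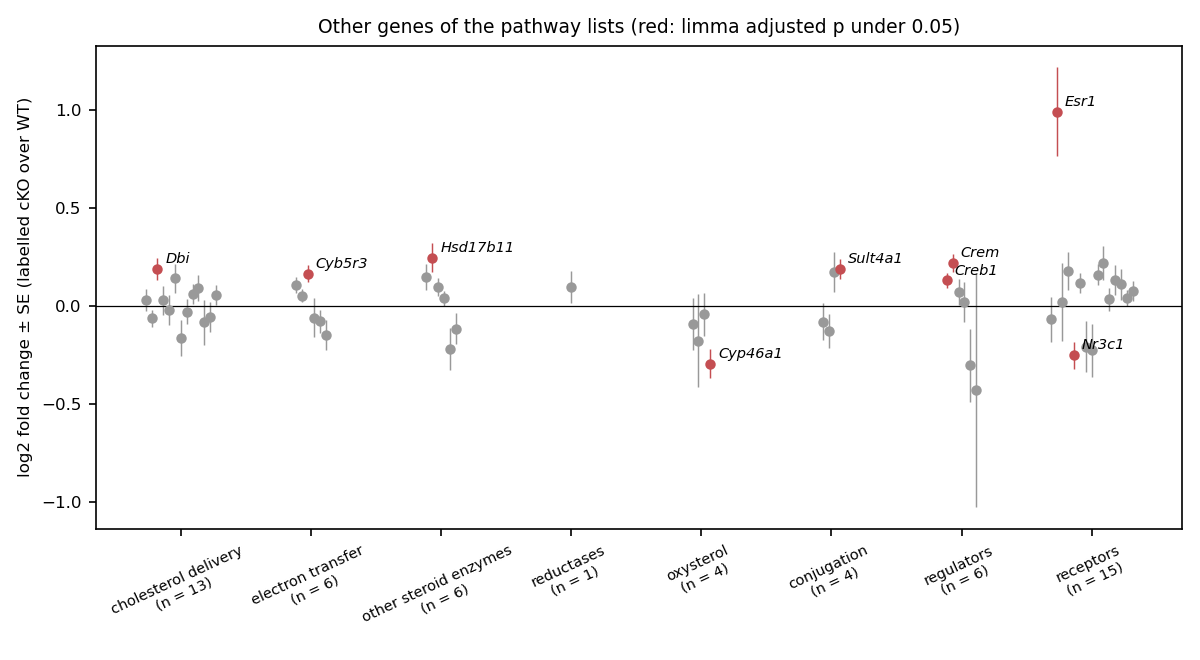
Log2 fold change ± SE, labelled cKO over WT (vertical axis), of the 55 tested pathway genes outside the set of 9, in 8 lists (horizontal axis, with the number tested). Red points are the 9 past a limma adjusted p-value of 0.05, of which 7 are higher and 2, Cyp46a1 and Nr3c1, lower.

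In the authors' deposited table Dbi, Cyb5r3, Hsd17b11 and Creb1 had an FDR of 0.0635, 0.0693, 0.0514 and 0.180, and the other 5 were under 0.05. Of the 9 calls, Cyp46a1, Crem and Esr1 were past the limma threshold in all 12 fits that each left out 1 mouse, and the others were lost in some: Hsd17b11 and Creb1 in 9 of the 12, Dbi in 7, Sult4a1 and Nr3c1 in 6 and Cyb5r3 in 3. When the thalamus marker score was a covariate, limma called 0 of the 55, and 12 had unadjusted p-values under 0.05, where the fit that lacked the score had 15. The log2 fold changes of 5 of the 9 were close to those without the score, at 1.04 for Esr1, 0.21 for Crem, 0.15 for Creb1, 0.20 for Sult4a1 and 0.24 for Hsd17b11, with limma adjusted p-values of 0.0564 to 0.166. Those of the other 4 were nearer 0, at 0.13 for Dbi, 0.10 for Cyb5r3, -0.14 for Cyp46a1 and -0.10 for Nr3c1, with limma adjusted p-values of 0.250 to 0.354. With that score and a term for the 4 libraries low in Oxt and Avp, 6 of the 55 were past it, of which 3 (Sult4a1, Crem and Esr1) were among the 9. Without those 4 libraries there were 5, of which Crem and Esr1 were among the 9. All 4 genes called without WT 1, all 5 without WT 11, all 5 without cKO 12 and all 3 without cKO 13 were among the 9, as were 3 of the 5 called without cKO 8.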

How the data were processed

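The deposited values are normalized CPM of 32494 genes in 12 libraries, alongside the results of a test run by the authors, which hold log2 fold changes, p-values and FDR. Per the submitters' processing notes the tools were bcl2fastq, FastQC 0.11.9, STAR 2.7.9a, SAMtools, Subread and featureCounts. Genome build, annotation and strand setting are not given in the sources used here. The deposited CPM values were whole multiples of 1 read in 100% of values above 0 (tolerance 0.01 reads), so whole reads were recovered for an alternative test, in which edgeR called 2097 genes. Columns were matched to mice by name. Nothing in the labels says how the mice were bred or processed together. The limma p-values set a group difference against the spread between mice within the groups of these 12 libraries. Those of the correlations came from the WT mice only.

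The main test was limma 3.58.1 (R 4.3.3; lmFit and trended eBayes) on log2(CPM + 1) with group as the single term. It ran on 15359 genes whose mean reached 1 CPM, Benjamini-Hochberg adjusted over all of them with a threshold of 0.05. Of these 2172 were past it, with 1004 up and 1168 down in the libraries labelled cKO, or 1377 higher and 1054 lower after median centring. Correlations within WT used exact permutation tests. Reads carry no molecular identifiers, so read floors cover counting error only. edgeR 4.0.16 and DESeq2 1.42.0 served as alternatives. The 9 genes and the gene lists were chosen with earlier results of these data known. The rule for named genes took the 9 genes, Smc3, pathway genes past the threshold and the 5 genes most like Cyp11a1, of which 1 is not reported here. Pathway genes under the CPM minimum, Nr5a1, Oxt, Avp and the marker genes were named after their values were seen. A set of 4 libraries low in Oxt and Avp (mean under 10 CPM) was defined after seeing the data. The 16 marker lists are given where they touch a result, and the others among the closing observations.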

Additional observations from a re-analysis of the deposited data

Results flagged for a closer look

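A search of 72 sets of values for a single distant library gave 4, and chance alone gives about 3.6, or 1 in 20. Cyp11a1 was at 0.413 CPM in WT 11, where the next WT library was at 1.25 CPM. WT 1 had 68.7 M reads (68744112), where the next WT library had 24010001. The summed level of 6 neuron markers was 4946 CPM in cKO 13, where the next library labelled cKO was at 4382 CPM. The summed level of 4 fibroblast markers was 44.0 CPM in WT 1, where the next WT library was at 36.6 CPM. Without WT 11 the log2 fold change of Cyp11a1 was 1.05.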

How the results depend on the processing

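In the 11 alternatives that gave it a value, the log2 fold change of Cyp11a1 was 0.82 to 1.70. It was 1.03 to 1.30 in the 12 fits that each left out 1 mouse. As the groups did not overlap, leaving out 1 mouse could not turn its sign. The log2 fold change was 1.64 with a pseudocount of 0.1, 1.69 by edgeR and 1.70 by DESeq2 on recovered reads, since the pseudocount of 1 shrinks low levels. A minimum of 5 CPM left no value for Cyp11a1, Tspo or Akr1c14. For the other 8 genes, leaving out 1 mouse could not move a value by 1 SD between mice. The other gene minimums and a robust fit repeated the main value where they gave one. Little is therefore read from a count of values, and Tspo, Srd5a1 and Akr1c14 changed sign at less than 1 SD. With all of these counted, 187 of 190 values moved by less than 1 SD. The exceptions were Star at 0.02 with the thalamus score and at 0.01 with that score and the term for the 4 libraries low in Oxt and Avp, and Tspo at -0.12 without those 4 libraries. Pathway genes past the limma threshold numbered 5 with all genes above 0, 0 with the thalamus score, 5 without the 4 libraries, and 3 to 9 when 1 mouse was left out, and 4, 0 and 2 of the first 3 counts were among the 9 named. All tested genes past it numbered 812 with the thalamus score and 1158 (without WT 1) to 2302 (without WT 5) when 1 mouse was left out. The 9 named pathway genes, taken because they were past the threshold, lost it in 69 of 216 alternative values and kept their direction in all. Nothing is read from the direction, as the other gene minimums and the robust fit repeated the main log2 fold change. For Crem, Cyb5r3 and Cyp46a1 the groups did not overlap, so leaving out 1 mouse could not turn the sign. The correlation of Cyp11a1 and Star in WT ranged from 0.27 to 0.93 when 1 mouse was left out, and was past the threshold without WT 6 (r = 0.77, exact permutation p-value 0.0278 adjusted over the 5 pairs, where the adjusted p-values of its alternatives ran from 0.0278 to 0.947). The other 4 pairs ranged from -0.74 to 0.61 when 1 mouse was left out. Apart from the pseudocount, the cause was not tested. No paired analysis was possible because WT and cKO mice carry different numbers throughout. Cyp11a1 rested on as few as 10 reads and Akr1c14 on 32, which limits both.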

Other observations

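The marker lists not given above were compared by their summed CPM. The 12 hypothalamus markers summed to 81.8 to 658 CPM in WT and to 165 to 756 CPM in the libraries labelled cKO, and the lowest sums in each group were those of WT 5, WT 4, cKO 12 and cKO 13. The 6 oligodendrocyte markers summed to 4093 to 9849 CPM in WT and to 4803 to 9941 CPM in those labelled cKO, with the same 4 libraries highest. The ranges for WT and for the libraries labelled cKO were 1993 to 2459 and 2328 to 2644 CPM for 6 astrocyte markers, 204 to 261 and 218 to 257 CPM for 5 endothelial markers, 133 to 171 and 138 to 194 CPM for 4 mural markers, and 267 to 348 and 322 to 360 CPM for 3 oligodendrocyte precursor markers. They were 34.5 to 71.3 and 35.2 to 80.4 CPM for 5 ependymal and tanycyte markers, 6.65 to 13.1 and 6.81 to 10.9 CPM for 4 choroid plexus markers, 88.1 to 116 and 84.7 to 110 CPM for 8 cortical and striatal markers, and 20.01 to 36.0 and 21.0 to 43.3 CPM for 4 blood markers. Neuron markers ranged from 3947 to 4474 and from 4225 to 4946 CPM, and fibroblast markers from 31.7 to 44.0 and from 27.0 to 44.6 CPM. The 6 pituitary markers summed to 3.58 to 6.51 CPM in WT and to 4.34 to 14.9 CPM in the libraries labelled cKO. Of all lists, single markers past the limma threshold were 1 higher each among hypothalamus, neuron and oligodendrocyte precursor markers and 3 lower among thalamus markers. For the 9 genes, thalamus markers were a covariate in some fits. Others held a term for the 4 libraries low in Oxt and Avp or left them out. The part of the other markers in the results on the 9 genes was not tested.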
